A study of Homo sapiens with 2 samples.

Results

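MYC was bound at 340 sites on distal 11q, the part of the long arm of chromosome 11 that is often lost in neuroblastoma. They were all the peaks of the authors' list on chromosome 11 whose summit lay above position 70000000 of GRCh37, and made up 37.1% of the 917 peaks of that chromosome and 1.93% of all 17659 peaks. The 577 peaks of chromosome 11 with a summit at or below that position, here called proximal chromosome 11, were set beside them. The choice used position alone and no measured value.

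The peaks came from 1 ChIP-seq library of MYC, made beside 1 input library of sonicated chromatin that had not been immunoprecipitated. Both were made from TET21 cells that expressed full-length MYC. TET21 descends from SH-EP, a human neuroblastoma line, and carries a MYCN transgene that doxycycline switches off. Before harvest the cells spent 7 days in doxycycline at 1 µg/mL, and they were then fixed for 10 min in 1% formaldehyde. The ChIP used 2 µg of a polyclonal rabbit antibody to MYC. No cells without the ectopic MYC were analysed here, the line is 1 clone, and the labels give neither its copy number of 11q nor whether the antibody can tell the ectopic MYC from the cells' own. With 1 library of each kind no value below has a replicate error and no difference between the segments could be tested. Peaks within 1 library are not replicates, so the 95% intervals cover counting error or the spread among peaks only, and treat peaks as independent.

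MYC, a transcription factor of the helix-loop-helix family, pairs with MAX and binds DNA at E-box motifs, of which CACGTG is the best known, mostly in the promoters of active genes. Loss of distal 11q marks a group of aggressive neuroblastomas, most of which lack MYCN amplification. Since a lost copy removes template from the ChIP and from the input alike, a peak on such a segment can be read only beside its input. Peaks were not matched to genes and no sequence is printed, because no GRCh37 annotation or genome was used here.

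With the edge at 70 Mb, MYC peaks were spread more thinly over distal 11q than over proximal chromosome 11. The difference rested largely on 1 crowded stretch next to the edge, and its size also on how the length was counted. Its direction turned when the edge was moved into that stretch. Distal 11q held 5.29 peaks per Mb (exact Poisson 95% interval 4.75 to 5.89) over the 64.2 Mb to its last peak, against 8.27 per Mb (7.61 to 8.97) on proximal chromosome 11, a ratio of 0.640. The proximal block from 60 to 70 Mb alone held 245 peaks, 42.5% of that side, at 24.5 per Mb. Without it the proximal density was 5.55 per Mb and the ratio 0.953. Leaving out that block and also the longest proximal stretch without a peak, which lies across the centromere, gave 6.54 per Mb and a ratio of 0.809. Over 1-Mb windows that hold a peak, distal 11q had 6.18 peaks per window, against 12.02 on proximal chromosome 11 and 8.74 there without the block from 60 to 70 Mb. With the edge moved to 65 Mb the ratio turned to 1.01, since the densities were then 6.88 per Mb on the distal side and 6.81 per Mb on the proximal side. Over the 22 other chromosomes numbered 1 to 22 and X, the density ran from 2.01 per Mb on chromosome X to 17.8 per Mb on chromosome 19, with a median of 5.66, and 8 were below distal 11q.

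Along distal 11q the sites fell into a dense start, a sparse middle and a dense stretch before the end. The block from 70 to 80 Mb held 82 peaks, or 8.20 per Mb (6.52 to 10.2). The next blocks held 33 peaks from 80 to 90 Mb, 23 from 90 to 100 Mb and 41 from 100 to 110 Mb, which gives densities of 3.30, 2.30 and 4.10 per Mb. Density was high again from 110 to 120 Mb with 78 peaks, and from 120 to 130 Mb with 68 peaks. Beyond 130 Mb there were 15 peaks, at 3.55 per Mb (1.98 to 5.85) up to the last peak. The intervals of the 2 densest blocks do not overlap those of the blocks between 80 and 110 Mb. All of the blocks lie below the 24.5 per Mb next to the edge on the proximal side.

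The densest 1-Mb window of distal 11q was 118 to 119 Mb, with 28 peaks in 19 bound regions. It was the only window of distal 11q with 20 or more peaks, against 7 such windows on proximal chromosome 11, which held 39.7% of that side's peaks and reached 53 peaks in 1 window. Windows of 73 to 74 Mb and 85 to 86 Mb held 14 peaks each, and 102 to 103 Mb held 12. The middle window of distal 11q held 4 peaks and that of proximal chromosome 11 held 5. Fewer windows were empty on distal 11q, 10 of 65, than on proximal chromosome 11, 22 of 70.

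**Figure D1:**
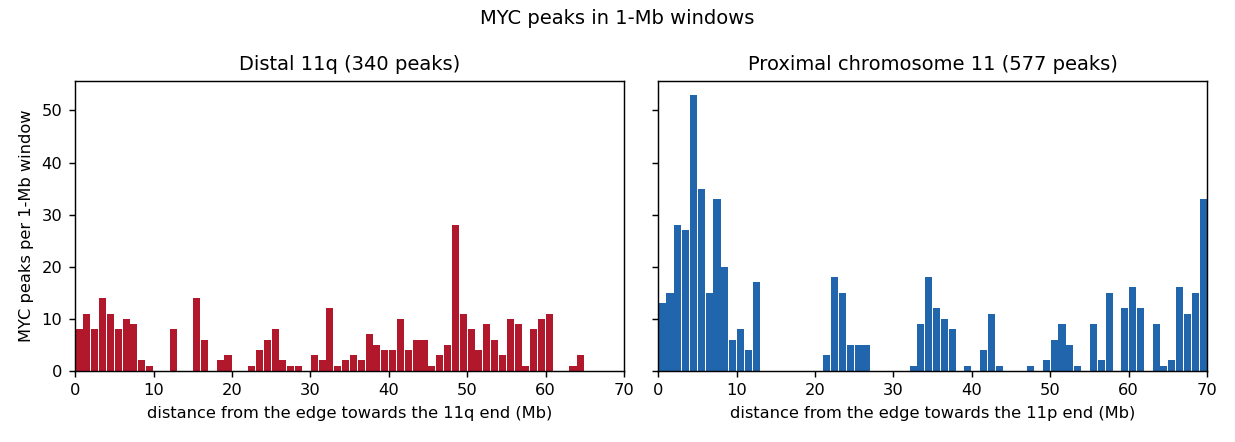
MYC peaks in each 1-Mb window (bars, number of peaks) by distance in Mb from the edge, for distal 11q on the left (towards the 11q end) and proximal chromosome 11 on the right (towards the 11p end). The distal bars stay at or below 14 apart from 1 window of 28, while the proximal bars next to the edge reach 53.

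Distal 11q had 14 stretches of over 1 Mb without a peak, which together spanned 25.1 Mb, and proximal chromosome 11 had 11, which spanned 30.4 Mb. The longest on distal 11q was 3.46 Mb, between peaks that end at 79148674 and start at 82611428. The next were 2.99 Mb from 130903301 to 133894410, near the end of the arm, and 2.78 Mb from 89956329 to 92733775. The longest on proximal chromosome 11 was 9.06 Mb, from 48028157 to 57092057. That stretch lies across the centromere, and how well reads map over it was not tested. After the gap at 130903301, 4 peaks remained before the end of the list, the last at 134230265 to 134230424 with a fold of 6.19.

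The typical MYC site on distal 11q had nearly the same strength as that on proximal chromosome 11. Strength is given in 3 ways. The fold is the authors' value of ChIP signal over the peak caller's local background, and the pileup (how many ChIP fragments cover the summit) and the background (the number expected there, taken to come from the input because its values lie on steps of whole fragments) were recovered from the fold and the −log10 p. The median distal peak had a fold of 6.29 (interval of the median 6.06 to 6.50, quartiles 5.35 and 8.02), against 6.24 (6.03 to 6.47, quartiles 5.17 and 8.31) on proximal chromosome 11. Its pileup was 12 fragments (quartiles 10 and 16), and that of proximal chromosome 11 was also 12 (10 and 16). The distal geometric mean was 1.001 times the proximal one for both the pileup and the fold. Over the whole list the medians were a fold of 6.40 and a pileup of 13.

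The share of strong sites among the distal peaks was within counting error of that in the whole list. Of the distal peaks, 42 had a fold of at least 10, which is 12.4% (exact binomial interval 9.05 to 16.3), against 84 proximal peaks, 14.6% (11.8 to 17.7), and 15.4% of the whole list. At least 20-fold were 2 distal peaks (0.588%), 4 proximal peaks (0.693%) and 1.43% of the whole list. The distal intervals include the shares of the whole list at both folds, so at this number of peaks a difference was not detectable. Neither distal 11q nor proximal chromosome 11 had a peak among the 100 most significant of the list, a count of 0 for which the exact binomial interval reaches 3.62%. Distal 11q held 4 of the top 500 (0.800%, interval 0.218 to 2.04) and 32 of the top 2000 (1.6%, 1.10 to 2.25), and both intervals include its 1.93% of all peaks. Proximal chromosome 11, with 577 of the 17659 peaks, held 12 of the top 500 (2.4%, 1.25 to 4.15) and 63 of the top 2000 (3.15%, 2.43 to 4.01). Among chromosomes other than 11, only chromosomes 13 and 8 had a smaller share of peaks at a fold of 10 or more than the 12.4% of distal 11q.

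**Figure D2:**
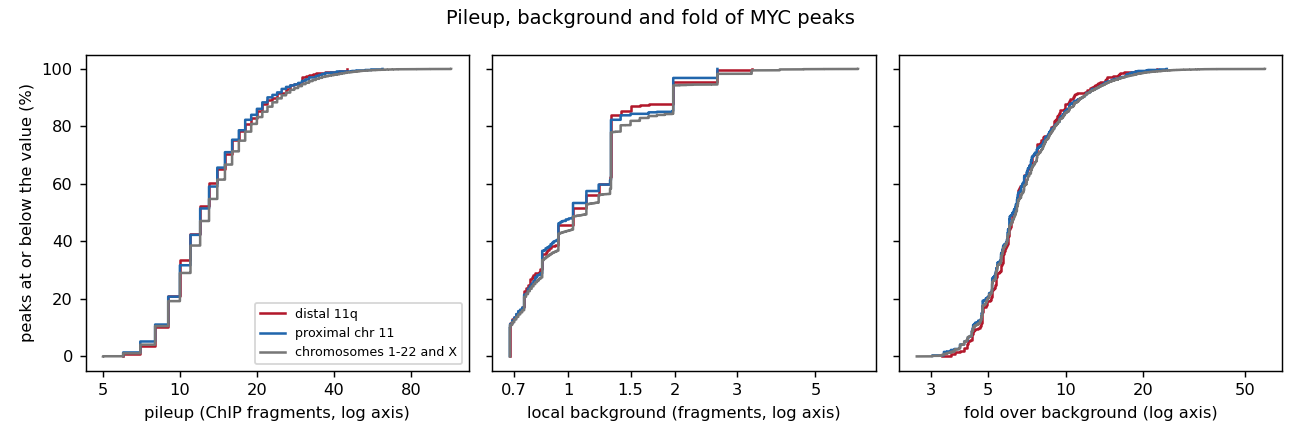
Cumulative share of peaks (%) by pileup, local background and fold, each on a log axis, for distal 11q, proximal chromosome 11 and chromosomes 1 to 22 with X. The curves of distal 11q and proximal chromosome 11 lie almost on each other, with medians of 12 and 12 fragments for the pileup and 6.29 and 6.24 for the fold.

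The strongest site of distal 11q lay on chromosome 11 at 126081434 to 126081692. There 45 ChIP fragments (95% Poisson interval 32.8 to 60.2) stood over 1.03 expected from the input. The fold was 22.65, and the −log10 p of 57.57 ranked 174 in the whole list. The second, at 118972735 to 118973021 in the densest window, had 42 fragments (30.3 to 56.8) over 0.937, a fold of 22.20, and ranked 212. These 2 sites were the only distal ones with a fold of 20 or more, and the intervals of their pileups overlap. The strongest site of proximal chromosome 11, at 20408977 to 20409433, had 53 fragments, a fold of 23.28 and rank 111.

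The third site by significance was also the widest of the segment. It covered 989 bp at 93473935 to 93474923, in the block with the fewest peaks of the first 6, with 37 fragments at its summit and a fold of 18.71. The fourth, at 88070770 to 88071164, had 38 fragments and a fold of 16.87, and was the only one of the first 11 with another peak within 1 kb, 337 bp away. The fifth, at 123612196 to 123612553, matched the strongest site in pileup, with 45 fragments. Its background of 2.64 was the highest among the 12 strongest sites, and its fold was 12.64. The order of distal sites thus depended on the measure, since this peak ranked 221 in the list by pileup and 1341 by fold.

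The remaining 7 of the 12 most significant sites had pileups of 27 to 32 fragments. Those at 74854158 to 74854481, 78285656 to 78286038 and 111944975 to 111945198 had 30 fragments each, with folds of 17.91, 16.00 and 15.26. The sites at 77348675 to 77348959 and 95745490 to 95745693 had 27 fragments each over low backgrounds of 0.712 and 0.740, and folds of 16.35 and 16.09. The last of them, at 119252386 to 119252699 and at 71159610 to 71160036, had folds of 14.22 and 14.43. The 95% intervals of these 7 pileups overlap, so their order is uncertain. The 12 sites were scattered over the arm: 4 lay below 80 Mb, 3 between 80 and 100 Mb and 5 above 110 Mb.

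Strong sites were found in 6 of the 7 blocks of distal 11q. The 42 peaks with a fold of 10 or more fell into 26 of its 65 windows of 1 Mb. The block from 110 to 120 Mb held 13 of them (16.7% of its peaks). The blocks from 70 to 80 Mb and from 120 to 130 Mb held 10 each (12.2% and 14.7%). In the blocks between 80 and 110 Mb the share ran from 6.06% to 13.0%. The 15 peaks beyond 130 Mb held none, but at the 12.4% of all distal peaks few would be expected among so few. By block, the median fold ran from 5.65 between 90 and 100 Mb to 6.90 between 120 and 130 Mb, and the median pileup from 10 to 14 fragments. The 17 peaks with a pileup of 30 or more made up 5% of distal 11q (2.94 to 7.88), against 4.85% of proximal chromosome 11 (28 peaks) and 6.04% of the whole list.

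At the weak end, all 5 of the least significant distal peaks had a pileup of 6 to 11 fragments. The weakest, at 120081275 to 120081449, had 11 fragments, but over 2.64 expected ones, which gave it a fold of 3.30 and the lowest −log10 p of distal 11q, 4.67. The others, at 125274775, 111957662, 70116742 and 98604241 (start positions), had 8, 8, 6 and 6 fragments. The last 2 had a fold of 4.16 over a background of 0.684, almost the lowest that the caller used. The lowest pileup that was called thus moved with the background: it was 6 fragments where the background was at its floor and 11 where it was 2 or more.

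**Figure D3:**
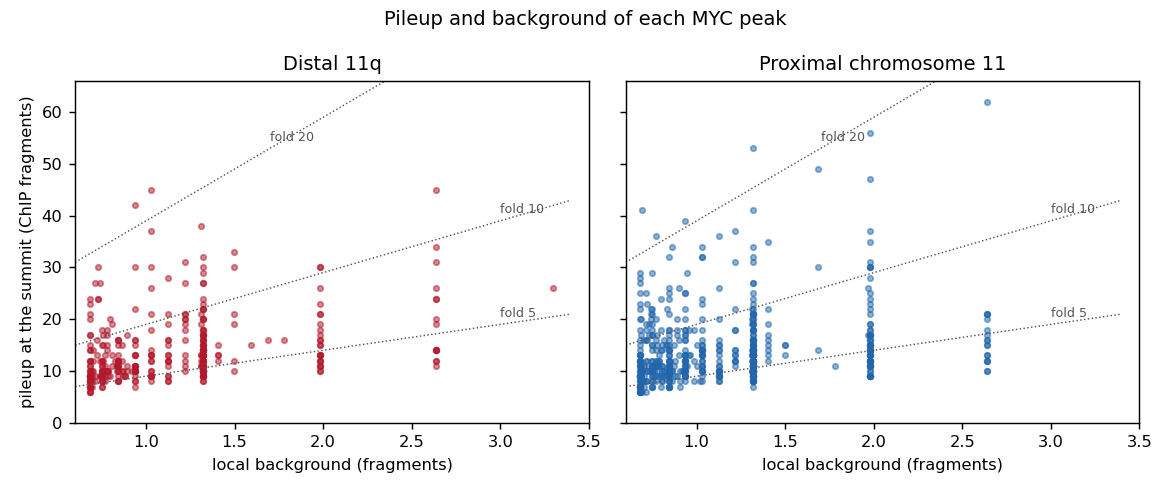
Pileup (ChIP fragments over the summit) against local background (fragments expected from the input) for each peak of distal 11q on the left and proximal chromosome 11 on the right; dotted lines mark folds of 5, 10 and 20. The 2 distal peaks above the line for a fold of 20 have 45 and 42 fragments, and the columns of points mark the whole numbers of input fragments that set the background.

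The input gave no lower background on distal 11q than on the rest of the chromosome. The background at the peaks had a geometric mean of 1.08 fragments on distal 11q and 1.08 on proximal chromosome 11, a ratio of 0.998 (95% interval from the spread among peaks 0.9504 to 1.05). The medians were equal at 1.03, against 1.12 over the whole list. The ratio was 0.981 among peaks over 20 kb from any other (158 distal and 178 proximal peaks) and 0.972 among peaks with a pileup at or below the median of the list. The lowest background the caller allows, the genome-wide floor of 0.683 fragments, was reached by 34 distal peaks, 10.0% (7.03 to 13.7), against 58 proximal peaks, 10.1% (7.72 to 12.8), and 9.97% of the whole list. The other chromosomes ran from 0.963 on chromosome X to 1.502 on chromosome 7 in mean background and from 22.5% on chromosome X to 0.952% on chromosome 7 in peaks at the floor, so distal 11q stood among the ordinary ones. The caller takes the highest of several estimates and never goes below the floor, so this background follows a rise of the input more closely than a fall.

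The whole numbers of input fragments behind the background were also alike in both segments. On distal 11q the background matched input fragments over 1 fragment length (142 bp) at 115 peaks (33.8%) and over 1 kb at 129 (37.9%). At 62 peaks (18.2%) it matched fragments over 10 kb, and at 34 it was at the floor. On proximal chromosome 11 the shares were 35.5%, 34.3%, 20.1% and 10.1%. Each 1-kb step equals 10 of the 10-kb steps, and a background on both was counted under 1 kb. The split between 1 kb and 10 kb is thus uncertain. At the strongest distal site the background matched 11 input fragments in 1 kb, and at the second 10 fragments in 1 kb. At the fifth site, where the fold was low for its pileup, 4 input fragments lay within 1 fragment length. A difference of 1 input fragment in so short a window moves the background by 0.660, which limits how well the fold of any 1 site is known.

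Within distal 11q the background differed more between blocks than between the segments, but a mean over fewer peaks varies more by itself. No interval was computed for the block means, and differences between them were not tested. The background was highest from 70 to 80 Mb, with a geometric mean of 1.20. In that block lay 9 of the 16 distal peaks with a background of 2 or more, and 4 of 82 peaks were at the floor. From there it was 1.12 from 80 to 90 Mb, 0.994 from 90 to 100 Mb and lowest, 0.936, from 100 to 110 Mb, where 5 of 41 peaks were at the floor. It was 1.08 in both the blocks from 110 to 120 Mb and from 120 to 130 Mb, and 0.979 beyond 130 Mb. From 80 Mb to the end, 258 peaks had a geometric mean of 1.05, or 0.967 times that of proximal chromosome 11. Proximal blocks ran from 1.02 to 1.17. Over the 258 other blocks of 10 Mb in the genome with at least 20 peaks, the middle value was 1.07, with 5th and 95th percentiles of 0.968 and 1.57, so only the distal block from 100 to 110 Mb lay outside these percentiles.

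**Figure D4:**
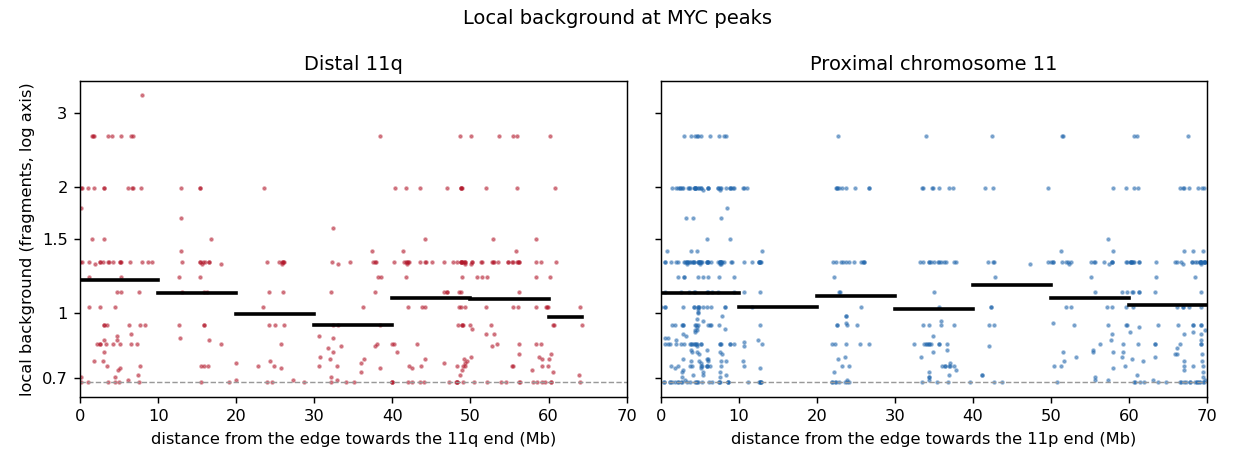
Local background at each MYC peak (points, fragments on a log axis) by distance in Mb from the edge, for distal 11q on the left and proximal chromosome 11 on the right; black bars are geometric means over blocks of 10 Mb and the dashed line is the genome-wide floor of 0.683. The distal means run from 0.936 to 1.20 and the proximal ones from 1.02 to 1.17, with no drop at the edge.

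MYC sites on distal 11q were less crowded than those of proximal chromosome 11. For neighbours within 1 kb and within 100 kb, the distal intervals include the shares of the whole list. The crowded proximal block from 60 to 70 Mb held much of the contrast within 1 kb, but less of that within 100 kb. Another peak lay within 1 kb of 98 distal peaks, 28.8% (24.1 to 34.0), against 223 proximal peaks, 38.6% (34.7 to 42.8), and 32.8% of the whole list. The median distance to the nearest other peak was 12.1 kb on distal 11q, 3.46 kb on proximal chromosome 11 and 10.0 kb over the whole list. The interval of the distal median, 10156 to 24696 bp, overlaps that of the whole list, 9462 to 10577 bp. No neighbour lay within 100 kb of 56 distal peaks (16.5%), against 33 proximal peaks (5.72%) and 12.8% of the whole list. In the block from 60 to 70 Mb, 113 of 245 peaks (46.1%) had a neighbour within 1 kb. Without that block the proximal share was 33.1% (110 of 332 peaks), inside the distal interval, and the median distance was 8.10 kb. Of these 332 peaks, 9.34% (6.43 to 13.0) had no neighbour within 100 kb. That interval lies below the distal 16.5% but overlaps the distal interval. Counted the other way, 83.5% of distal peaks (79.2 to 87.3) had a neighbour within 100 kb, against 87.1% of the whole list. Among distal blocks the 1-kb share was highest from 80 to 90 Mb, where 15 of 33 peaks had such a neighbour. None of the 15 peaks beyond 130 Mb had a neighbour within 1 kb. Distances between 1 and 5 kb were found at 30 distal peaks (8.82%, 6.03 to 12.4), 84 proximal peaks (14.6%) and 10.1% of the whole list. The distal interval includes the share of the whole list. On both segments and in the whole list, most peaks had their neighbour either closer or farther away than that.

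**Figure D5:**
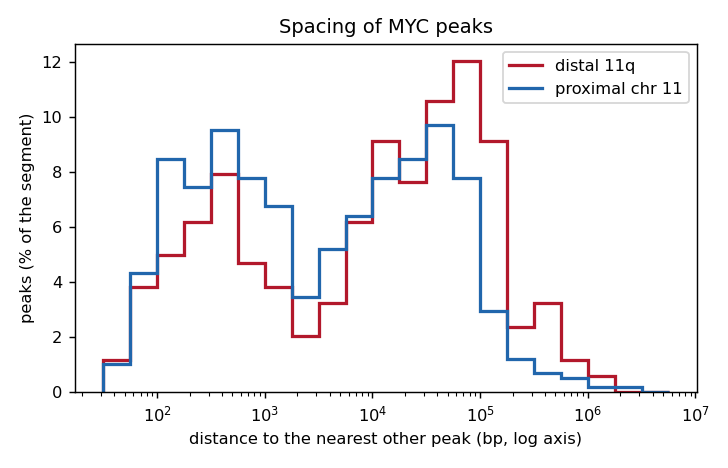
Share of peaks (%) by distance to the nearest other peak (bp, log axis) for distal 11q and proximal chromosome 11. Both curves have a hump below 1 kb and one above 10 kb; 28.8% of distal and 38.6% of proximal peaks have a neighbour within 1 kb, and the median distances are 12.1 kb and 3.46 kb.

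When peaks with gaps of up to 1 kb were joined, distal 11q had 285 bound regions, of which 242 (84.9%) held 1 peak, 36 held 2 and 7 held 3 or more. On proximal chromosome 11 there were 457 regions, of which 354 (77.5%) held 1 peak, 89 held 2 and 14 held 3 or more. Over the whole list 82.0% of regions held 1 peak, 14.9% held 2 and 3.18% held 3 or more, and proximal chromosome 11 without its block from 60 to 70 Mb had 81.6% with 1 peak. The distance between neighbouring summits within a region had a median of 555 bp on distal 11q and 554.5 bp on proximal chromosome 11, a difference of less than 1 bp. The distal regions with the most peaks held 5 each. That at 118306113 to 118308806 spanned 2694 bp and had folds of 4.75 to 10.86, and that at 73018710 to 73020540 spanned 1831 bp with folds of 4.03 to 9.06. The next, at 118790669 to 118793010, held 4 peaks with folds of up to 6.90. None of these 3 regions held any of the 12 most significant distal sites. They held only 5, 5 and 4 of the 340 distal peaks, so few of those sites would fall in them by share alone. No conclusion is drawn from this count. The median best fold was 6.28 in distal regions of 1 peak, 7.86 in those of 2 and 9.06 in the 7 of 3 or more. The best of several peaks tends to be higher than a single one, and whether this accounts for the order was not tested.

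Crowded and isolated sites of distal 11q had similar folds. The median fold was 6.34 for peaks with a neighbour within 1 kb, 6.29 for those with one 1 to 100 kb away and 6.18 for those with none within 100 kb. In these classes 13 of 98 (13.3%), 24 of 186 (12.9%) and 5 of 56 peaks (8.93%) were at least 10-fold over background. The same shares were 13.0%, 16.2% and 9.09% on proximal chromosome 11 and 15.9%, 15.7% and 12.9% over the whole list. The background was 1.09, 1.11 and 0.969 in the same classes, against 1.11, 1.07 and 1.03 on proximal chromosome 11. The most isolated distal peak, at 98604241 to 98604489, had no other peak within 1371 kb and was also among the 5 weakest, with 6 fragments. An isolated site could still be strong: that at 78285656 to 78286038 lay 386 kb from the next peak and had a fold of 16.00.

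Distal peaks were slightly narrower than proximal ones, with median widths of 220 bp (interval of the median 207 to 233) and 234 bp (221 to 247), intervals that overlap. In all they covered 84.8 kb, against 156.8 kb on proximal chromosome 11. Only 16 distal peaks (4.71%, 2.71 to 7.53) were wider than 500 bp, against 40 proximal peaks (6.93%, 4.998 to 9.32) and 6.82% of the whole list. These 16 had a median pileup of 21 fragments and a median fold of 8.96. The minimal width of 142 bp was found at 36 distal peaks (10.6%), against 9.71% of proximal peaks and 9.21% of the whole list. On distal 11q, proximal chromosome 11 and the whole list alike, such peaks had a median pileup of 9 fragments and none reached a fold of 10. The second widest peak, 710 bp at 93517102 to 93517811, lay 42.2 kb from the widest and had a fold of 5.37 only. Width and pileup are not independent, since the caller extends a peak as far as its signal passes the threshold.

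No bound region lay across the edge at 70000000, but the edge fell within a crowded stretch. The 1-Mb windows on its proximal and distal sides held 13 and 8 peaks, against medians of 5 and 4 per window on those segments. The first distal peaks were at 70005741 to 70006102 with a fold of 8.19, 70049319 to 70049517 with a fold of 6.11 and 70056341 to 70056552 with a fold of 6.46. The last proximal peaks were at 69974557 to 69974801 with a fold of 7.88, 69640333 to 69640540 with a fold of 5.94 and 69639948 to 69640124 with a fold of 4.16. The peaks on either side of the edge lay 30.9 kb apart, and their pileups were 18 and 15 fragments.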

How the data were processed

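The file analysed is the authors' deposited list of peaks of 1 MYC ChIP library, in narrowPeak layout. Per the submitters' processing notes, the build was GRCh37 and the tools included MACS2 2.1.0, STAR 2.5.2a, Picard 2.7.1, SAMtools 1.3 and bedtools; their roles and order are not given. The authors' deposited fold is a ratio, their −log10 p and −log10 q values come from the caller, and their deposited score is the −log10 q times 10 without its decimals in 100.0% of peaks. The deposited list is labelled as filtered. The rule is not given in the sources used here, and the peak numbers of chromosome 11 have no gap. The weakest peak of the list had a q-value of 0.0493.

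Pileup and background were recovered from fold and −log10 p by the definitions of MACS2, (pileup + 1) / (background + 1) and the upper Poisson tail beyond the pileup. A whole pileup between 3 and 699 matched within 0.001 for 100.0% of peaks, and the procedure was tested on simulated peaks. Backgrounds lay on the floor or on steps of whole input fragments (tolerance 0.0003) in 99.9% of peaks, but chance alone would put 6.40% of values on the finest step. From the step, the input was 1.52 times as deep as the ChIP library, provided that the caller scaled the input to the ChIP. The depth is otherwise unknown. Without molecular identifiers, fragments may be copies of 1 molecule. Coordinates are 1-based. Density used the span from the edge to the last peak and from the first peak to the edge. Intervals are exact Poisson for numbers and exact binomial (Clopper-Pearson) for shares, and those of medians come from order statistics (scipy 1.17.1). The interval of the background ratio is the normal one on the log scale.

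Peaks were named by a fixed rule: the 12 most significant, the extremes of fold, pileup and width, the 5 weakest, those at the edge, the 3 largest regions, the longest gaps and the densest windows. Its part on genes, start sites and motifs could not be applied without GRCh37 annotation. The members, blocks and comparisons were chosen with earlier results of these data known.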

Additional observations from a re-analysis of the deposited data

How the results depend on the processing

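There were 29 alternatives. In 17 the value stayed inside the 95% interval, or the count inside 1.5 times, in 11 it moved farther, and 1 turned a direction. The density of distal 11q over that of proximal chromosome 11 turned to 1.01 with the edge at 65 Mb, because the crowded stretch then falls partly on the distal side. It was 0.953 without the proximal block from 60 to 70 Mb, 0.809 without that block and the longest proximal stretch without a peak, 0.557 without that stretch alone, and 0.514 over 1-Mb windows that hold a peak (0.708 without the block). These were chosen after seeing the data, as was the ratio of bound regions, 0.678, and the proximal spacing without the block. The distal density was 6.88 per Mb with the edge at 65 Mb. With a minimum at the median −log10 p there were 160 distal peaks, 2.49 per Mb, with a median fold of 8.22, and with a minimum at the upper quartile 81, since fewer and stronger peaks were counted. A neighbour lay within 5 kb of 37.6% and within 10 kb of 44.1% of distal peaks, a wider distance by construction. The ratio of backgrounds stayed between 0.972 and 1.004 under its 5 alternatives. Settings for start sites, motifs and assembled length were not run. No paired analysis was possible because there was 1 ChIP library, and no replicate could be left out. No distal peak had a pileup under 6, which limits what this depth can show.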

Other observations

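Among 1-Mb windows of distal 11q with at least 8 peaks, that from 126 to 127 Mb had the strongest sites: its 9 peaks had a median fold of 9.51 and a median pileup of 19, over a background of 0.980, and included the strongest site of the segment. The window from 71 to 72 Mb had the highest background, 1.604 over 11 peaks, of which none was at the floor and 3 had a background of 2 or more. Without that window the background of distal 11q was 0.985 times that of proximal chromosome 11. Both windows were chosen after their values were seen.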
